A study of Rattus norvegicus with 4 samples.

Results

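The cells described here are Postn Dkk2 fibroblasts of the rat esophagus, in a control library and in a library taken at day 14 after fractionated X-ray exposure. They were chosen by their own UMI counts (unique molecular identifiers, which count captured transcripts): a barcode had at least 500 UMIs and at most 20% mitochondrial UMIs, at least 100 UMIs of Col1a1, Col3a1, Dcn and Lum per 10000, no Ptprc UMI, and fewer than 2 UMIs of Myh11 and Rgs5. Among these gated fibroblasts, a member had more UMIs of Postn, Dkk2, Pi16 and Ccn5 together than of Cilp, Thbs4, Aspn and Fibin together. The rule also asked for no Pecam1 UMI, but no feature of that name was found, so this criterion was not applied. A UMI of other endothelial genes, such as Cdh5 and Kdr, was found in 15.7% of control and 31.8% of day 14 members. The rule found 3815 members among 45348 deposited barcodes of 4 libraries and among 7741 gated fibroblasts of the 2 libraries compared.

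The animals were male Sprague-Dawley rats, 6 weeks old, whose esophageal region was exposed at a fixed dose rate. Control rats received 5 fractions of 0 Gy and were taken at day 7 (0Gy_7d), and the irradiated rats received 5 daily fractions of 7 Gy and were taken at day 14 (5x7Gy_14d). Tissue of 5 rats was pooled into 1 library per group, so there is no replicate check and no test, and every interval printed here is a 95% interval that covers counting error only. No unirradiated day 14 group was analysed here, so exposure and the time or age at collection cannot be told apart. Both pools were stored cold, shipped, digested with collagenase I, DNase I and trypsin and cleared of dead cells before capture with the 10x Genomics 3' chemistry, which reads a short stretch near the end of each transcript.

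Fibroblasts that carry Pi16 and Dpp4 are known from several organs as adventitial-type cells that sit around vessels and in the outer connective tissue. Periostin, the product of Postn, is a matricellular protein that binds collagen and is abundant in healing and fibrotic tissue. Dkk2 encodes a secreted modulator of Wnt signalling that binds the LRP co-receptors, Pi16 a peptidase inhibitor at the cell surface, and Ccn5 (also called Wisp2) a member of the CCN family of matricellular proteins. In fibrosis, fibroblasts deposit collagens, elastic fibres and matricellular proteins, often under control of TGF-beta, while p53 is the main transcription factor that DNA damage activates.

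The 2 libraries held 12505 and 10468 barcodes with 97207745 and 80574775 UMIs, of which 11818 and 10080 barcodes were kept, with medians of 6371.5 and 6026 UMIs. They shared 38 barcode sequences, 1 of them a member in both. Members had a median of 7303 UMIs and 2130 genes in the control and 11414 UMIs and 2915.5 genes at day 14, and a median of 5.52% and 2.96% mitochondrial UMIs. General fibroblast markers that the rule did not use were the 8 matched genes of a list that included Gsn, Pdgfra and Serpinf1. In each library 99.9% of members had a UMI of at least 1 of them. They summed to 26044 and 22101 CPM (counts of a gene scaled by all UMIs of the summed members, the usual depth-corrected unit), against at most 1916 CPM in the epithelial, endothelial, mural or immune gates. Gsn alone held 19390 and 13772 CPM, with a UMI in 99.7% and 99.6% of members. Pdgfra had a UMI in 56.5% and 54.3% of members. Mfap5, a microfibril gene that was given as a marker but not used by the rule, was at 3411 CPM in the control and 3016 CPM at day 14.

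Markers of other cell types also gave UMIs in members, and some moved between the libraries. The 10 matched epithelial markers summed to 1323 CPM in control members and 218 CPM at day 14, with a UMI in 77.7% and 35.0% of members, while the epithelial gate of the whole library held 2593 and 442 cells. The 6 lymphatic endothelial markers summed to 206 and 17.3 CPM, and the chemokine Ccl21 alone to 156 and 7.40 CPM. The 9 macrophage and monocyte markers went the other way, from 20.5 to 230 CPM, and were seen in 13.6% and 75.4% of members. The 9 blood endothelial markers were at 64.3 and 116 CPM and the 11 pericyte and smooth muscle markers at 341 and 370 CPM, while the neutrophil, lymphocyte and adipocyte lists stayed under 1 CPM. A gene was therefore said to meet the free RNA criterion only where its CPM in members was at least 0.5 times the highest CPM in the epithelial, endothelial, mural and immune gates of the library where it was higher.

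Postn Dkk2 fibroblasts made up a larger share of the gated fibroblasts at day 14. There were 1557 of them among 4397 gated fibroblasts in the control, or 35.4% (Clopper-Pearson interval 34.0% to 36.8%), and 2258 among 3344 at day 14, or 67.5% (65.9% to 69.1%). Of all kept barcodes they were 13.2% (12.6% to 13.8%) and 22.4% (21.6% to 23.2%). The fibroblasts with more Cilp-side UMIs, called Cilp Thbs4 fibroblasts below, numbered 2576 and 959, and ties 264 and 127. With Aspn left out of the rule, the most abundant gene of the Cilp side in members, the shares of gated fibroblasts were 49.9% and 73.9%, so the gap between the libraries depended in size on that gene. With every gated fibroblast thinned to 1000 UMIs they were 36.9% and 60.6%. The rule's margin was narrow for few cells: 131 control and 102 day 14 members were ahead by exactly 1 UMI, 229 and 69 gated cells were behind by exactly 1, and 1144 and 1742 members were ahead by 10 or more.

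**Figure D1:**
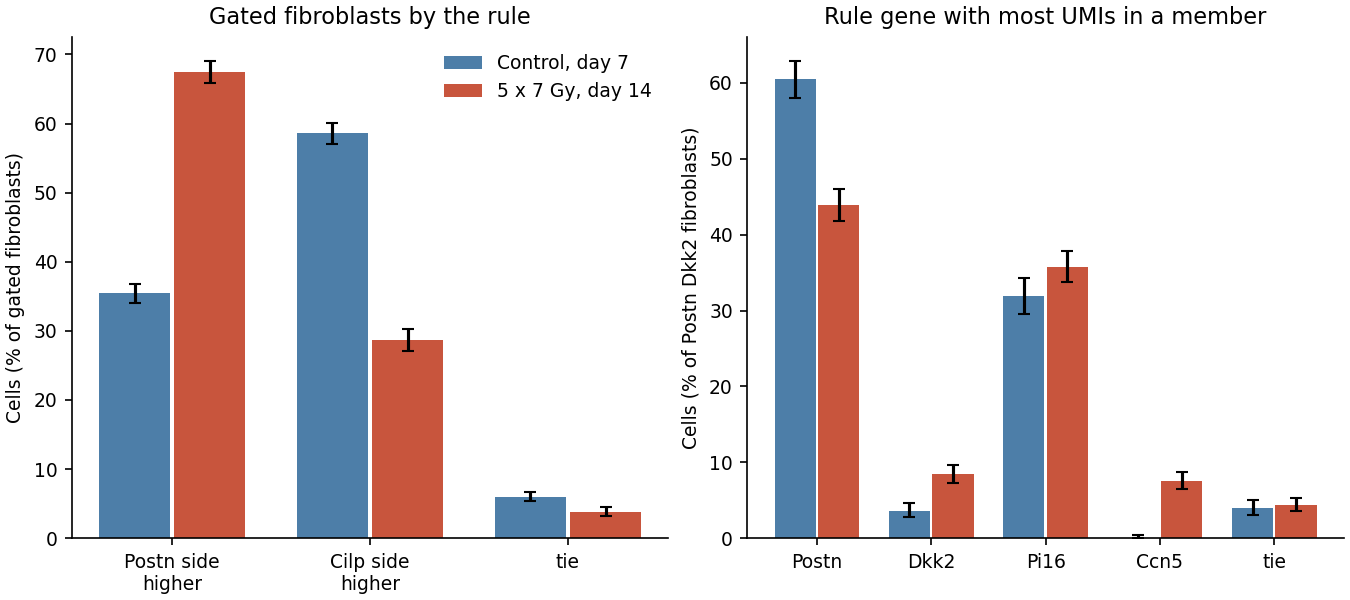
Left, share of gated fibroblasts (%) that fell on the Postn side, on the Cilp side or in a tie; right, share of members (%) by the rule gene with most UMIs, in the control (blue) and the day 14 library (red). Bars are single libraries and error bars 95% Clopper-Pearson intervals of counting error; the Postn side was 35.4% in the control and 67.5% at day 14, and Ccn5 led in 1 control cell and in 7.53% of day 14 members.

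The genes that chose the members are given as a description. Postn was at 2967 CPM in control members and 2360 CPM at day 14, with a UMI in 90.0% and 88.2% of cells, and Pi16 at 1754 and 1823 CPM, in 93.4% and 93.8% of cells. Dkk2 was at 663 and 807 CPM, with a UMI in 68.9% and 78.3% of members. Ccn5 differed most: it was at 36.4 CPM in 12.9% of control members and at 826 CPM in 68.2% of day 14 members. Of the Cilp-side genes, Thbs4, an extracellular matrix thrombospondin, was at 87.5 and 347 CPM, Aspn at 756 and 437 CPM, Fibin at 142 and 105 CPM and Cilp at 34.8 and 21.7 CPM. All 4 Postn-side genes had a UMI in 10.8% of control members and in 53.8% of day 14 members. After each cell was thinned to 1000 UMIs, Ccn5 still had a UMI in 2.39% and 34.9% of members, against 0.118% and 0.466% of epithelial cells, whose median depths were 15265 and 13464 UMIs before thinning. In Cilp Thbs4 fibroblasts, which the rule selects against Ccn5, the gene was also higher at day 14, at 10.3 and 153 CPM (14.8-fold). After thinning, 0.763% and 8.89% of those cells had a Ccn5 UMI.

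Within the members, the leading rule gene varied. Postn led in 60.5% (58.0% to 62.9%) of control members and 43.9% (41.8% to 46.0%) at day 14, Pi16 in 31.9% and 35.8%, and Dkk2 in 3.60% and 8.41%. Ccn5 led in 1 control cell and in 170 day 14 cells, or 7.53% (6.47% to 8.70%). Genes outside the rule differed between these day 14 groups, as values of single pools with no test. Apoe, a lipid carrier, was at 6831 CPM in Dkk2-led, 3411 CPM in Ccn5-led, 2106 CPM in Postn-led and 1055 CPM in Pi16-led cells. Its level in the immune gate was 4794 CPM, so Apoe did not meet the free RNA criterion in members as a whole. Eln, which encodes elastin, was at 2032 CPM in Ccn5-led cells and at 593 CPM in Dkk2-led cells. Igfbp5, a binding protein of insulin-like growth factors, ran from 124 CPM in Ccn5-led to 958 CPM in Pi16-led cells, and Grem1 from 70.6 CPM in Dkk2-led to 388 CPM in Ccn5-led cells.

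Many genes were higher at day 14 than in the control in these cells, and fewer were lower. Of 10315 genes with at least 50 UMIs over both libraries, rule genes left out, 656 were at least 2-fold higher at day 14 (6.36%) and 334 at least 2-fold lower (3.24%), and these shares are the background for each list below. The median log2 ratio of all genes was 0.09. The free RNA criterion was met by 312 of the higher and 70 of the lower genes. With members thinned to 1000 UMIs, where fewer genes reach 50 UMIs, 234 were higher and 76 lower, and with members that had a keratin UMI left out 702 were higher and 165 lower. With members that had an endothelial UMI left out, 535 were higher and 287 lower.

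Targets of p53 were prominent among the higher genes. Of 25 measured genes on the p53 list, 13 were at least 2-fold higher and 1 lower, with a median log2 ratio of 1.19 (background shares 6.36% and 3.24%, median 0.09). Of the 25, 15 met the free RNA criterion, and 8 of those 15 were at least 2-fold higher. Cdkn1a, which encodes the cyclin-dependent kinase inhibitor p21, was at 136 CPM in the control and 1051 CPM at day 14, a 7.72-fold difference (7.34 to 8.12). Thinned to 1000 UMIs, 10.3% (8.75% to 11.9%) of control members and 55.2% (53.1% to 57.3%) of day 14 members had a Cdkn1a UMI, and the unthinned shares were 43.7% and 90.9%. In the thinned endothelial gates the shares with a Cdkn1a UMI were 13.8% and 51.6%.

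Other p53 targets with a role in growth arrest and feedback were higher as well. Aen, an apoptosis-enhancing nuclease, went from 5.84 to 95.5 CPM (16.4-fold, 12.9 to 21.1) and had a UMI in 1206 day 14 members. Mdm2, the ubiquitin ligase that limits p53, was at 112 and 510 CPM (4.57-fold, 4.32 to 4.84). Ccng1, which encodes cyclin G1, was at 62.5 and 228 CPM, and Phlda3, an inhibitor of AKT, at 171 and 539 CPM. The stress protein Gdf15 was at 3.38 and 37.1 CPM but did not meet the free RNA criterion, since the day 14 endothelial gate held 177 CPM. Ptprv, a phosphatase gene known as a p53 target in rodents, had 0 UMIs in the control and 291 at day 14 over 208 cells, which is 41.4-fold higher against a floor of 3 counts over the control group, with a lower counting bound of 33.5-fold. The apoptosis effector Bax was 1.68-fold higher (1.59 to 1.77), and Sesn1, Xpc and Plk3 stood within 1.2-fold of the control. The lower gene was Perp, a desmosome-linked target, at 186 and 14.5 CPM, which was at 2457 and 1309 CPM in the epithelial gates and did not meet the criterion. It moved with the epithelial markers, and their part in its value was not tested.

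Matricellular genes, whose products signal from the matrix without building it, held 7 of 18 measured members at least 2-fold higher and 1 lower (background 6.36% and 3.24%), with a median log2 ratio of 0.49. Ccn2, the connective tissue growth factor and a well known target of YAP, TEAD and TGF-beta, was at 25.5 CPM in the control and 226 CPM at day 14 (8.86-fold, 7.89 to 9.98), in 156 and 1008 members. The endothelial gates held 79.7 and 251 CPM, above the members in the control and close to them at day 14. Tnc, which encodes tenascin C, was 5.53-fold higher from 17.2 CPM (4.80 to 6.42), and Cthrc1, a secreted protein of scar-forming fibroblasts, at 46.7 and 244 CPM (5.23-fold). Thbs1 and Thbs2, thrombospondins that act on TGF-beta activation and vessel growth, were 3.07-fold and 3.14-fold higher, and Spon1 went from 1.69 to 13.1 CPM. Fn1, which encodes fibronectin, was at 1892 and 1701 CPM and did not differ by 2-fold. Tgfbi was lower, at 94.4 and 31.9 CPM, and its level in the immune gate was 225 and 290 CPM.

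The 250 bases before and 50 after the RefSeq start of Ccn2 are shown because it is the most studied target of this group, with matches to the TEAD core GGAATG in capitals (RefSeq sequence on build GRCr8, chr1:22624565-22624864, minus strand, read 5′ to 3′).
Ccn2: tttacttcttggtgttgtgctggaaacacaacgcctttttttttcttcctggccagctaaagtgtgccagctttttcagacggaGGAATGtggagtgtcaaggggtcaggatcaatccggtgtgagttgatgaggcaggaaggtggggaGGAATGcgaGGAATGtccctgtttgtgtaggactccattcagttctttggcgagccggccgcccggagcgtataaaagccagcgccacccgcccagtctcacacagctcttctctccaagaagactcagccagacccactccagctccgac
The window held 3 matches, which began 166, 101 and 92 bases before the start. On either strand, GGAATG was found for 5 of 13 matricellular genes in the RefSeq table (Ccn1, Ccn2, Nid1, Thbs1 and Tnn), or 38.5%. It was found for 1 of 19 collagen genes, or 5.26%, and in 14.2% of all 33469 promoters of this length. A listed gene counted if any of its promoters matched, while the 33469 were counted singly, so these shares are not of like units. A match is a description of these letters and not a binding site, and the files hold no binding data.

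Collagens other than those of the rule were higher in part. Of 18 measured genes, 7 were at least 2-fold higher and 0 lower (background 6.36% and 3.24%), with a median log2 ratio of 0.84. Col8a1, a short-chain network collagen of vessel walls and healing tissue, was at 26.0 and 225 CPM (8.66-fold, 7.72 to 9.74), in 169 and 1075 members. Col12a1, a fibril-associated collagen, was at 54.1 and 169 CPM (3.13-fold), and Col7a1, the anchoring fibril collagen, at 8.97 and 31.5 CPM (3.51-fold). The basement membrane genes Col4a1 and Col4a2 were 2.42-fold and 3.67-fold higher, but the day 14 endothelial gate held 2099 and 208 CPM of them and neither met the free RNA criterion. Col6a1 was at 158 and 324 CPM, whereas its partner Col6a2 was at 877 and 1134 CPM, a 1.29-fold difference. The fibril-forming Col5a1 and Col5a2 were 1.92-fold and 1.52-fold higher, and the fibril-associated Col14a1 1.14-fold. Of the rule's own collagens, Col1a1 was higher at day 14, at 13056 and 16973 CPM, and Col3a1 lower, at 27639 and 24599 CPM.

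Elastic fibre genes were higher in 4 of 17 measured members and lower in 0 (background 6.36% and 3.24%), and with thinning in 2. Eln was at 288 CPM in 57.8% of control members and at 1054 CPM in 82.3% of day 14 members (3.66-fold, 3.53 to 3.80). Fbln1, a fibulin that binds elastin and fibronectin, was at 319 and 739 CPM (2.31-fold), and the fibrillin Fbn2 and the latent TGF-beta binding protein Ltbp2 were 4.07-fold and 3.87-fold higher from levels under 3 CPM. The main microfibril gene Fbn1 was at 1505 and 1812 CPM, and Mfap2 was lower, at 340 and 201 CPM, with neither past 2-fold. Among collagen-processing enzymes, 3 of 25 were past 2-fold, all higher (Loxl4, Tgm2 and Loxl3). Tgm2, the tissue transglutaminase that crosslinks matrix proteins, was at 89.2 and 216 CPM. Of 22 proteases and inhibitors 3 were higher and 1 lower, and Mmp2, the gelatinase that cleaves denatured collagen and basement membrane, was at 736 and 2216 CPM (3.01-fold, 2.94 to 3.08). After thinning, Mmp2 had a UMI in 51.3% and 80.3% of members. The contractile genes of the myofibroblast list differed little: 1 of 18 was higher (Cnn2), and Acta2, the smooth muscle actin, was at 7.61 and 7.08 CPM.

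**Figure D2:**
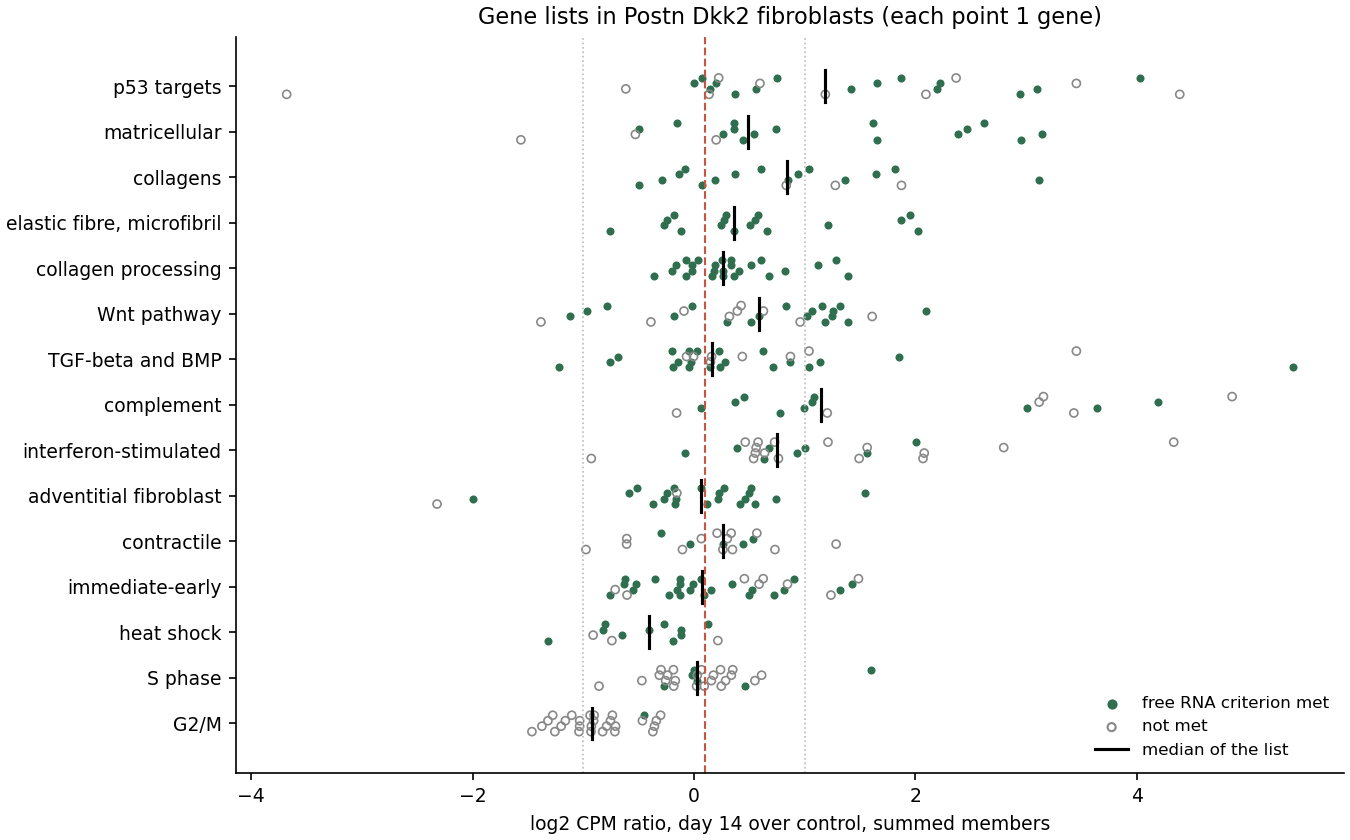
Each point is 1 gene of a list, placed by its log2 CPM ratio of day 14 over control in Postn Dkk2 fibroblasts. Filled points met the free RNA criterion, open ones did not, black bars are list medians, the red dashed line is the median of all genes (0.09) and the dotted lines mark 2-fold; p53 targets (median 1.19) and complement genes (1.14) had the highest medians of the plotted lists and G2/M genes (-0.92) the lowest.

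Among ligands and antagonists of the TGF-beta and BMP family, Grem1 differed most. Grem1, which encodes gremlin, a secreted antagonist that binds BMP ligands, was at 5.16 CPM in 12 control members and at 220 CPM in 695 day 14 members (42.6-fold, 33.1 to 55.8). It had a UMI in 0.274% and 10.4% of members after thinning and in 0% and 0.466% of epithelial cells. None of the epithelial, endothelial, mural and immune gates exceeded 9.50 CPM, but Cilp Thbs4 fibroblasts held 8.97 and 107 CPM. Of the 61 control UMIs in members, 25 came from 1 cell. In members led by Postn, Grem1 was at 1.60 and 294 CPM (183-fold, 105 to 355), and in members led by Pi16 at 13.7 and 122 CPM (8.93-fold, 6.71 to 12.1). Postn-led control members held 12 of the UMIs and Pi16-led ones 49, so the cell with 25 was Pi16-led. Its weight in the Pi16-led fold was not tested. Of 29 measured genes of the family, 6 were at least 2-fold higher and 1 lower (background 6.36% and 3.24%), with a median log2 ratio of 0.16. Of the 6 higher genes, 4 met the free RNA criterion. Inhba, the activin A subunit, was 3.60-fold higher from 14.7 CPM, its inhibitor Fstl3 at 19.3 and 39.7 CPM, and the ligand Bmp4 at 80.9 and 178 CPM. Bmp7 was lower, at 11.0 and 4.73 CPM. The TGF-beta ligands differed by less than 2-fold: Tgfb1 was at 13.2 and 24.1 CPM, Tgfb2 at 91.8 and 83.0 CPM and Tgfb3 at 40.7 and 25.2 CPM, and the receptors Tgfbr1 and Tgfbr2 at 17.9 and 17.4 CPM and 21.8 and 35.8 CPM.

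Wnt pathway genes were higher in 10 of 27 measured members and lower in 2 (background 6.36% and 3.24%), with a median log2 ratio of 0.59. The antagonist Sfrp1, a secreted Frizzled-related protein, was at 552 and 2357 CPM (4.27-fold, 4.16 to 4.38), and after thinning had a UMI in 33.9% and 76.2% of members. The secreted Dkk3 was at 50.2 and 120 CPM, and the R-spondin Rspo1, which amplifies Wnt signals, at 35.1 and 73.4 CPM. The receptors Fzd2 and Ror2 were 2.62-fold and 2.39-fold higher. Axin2 and Nkd1, feedback inhibitors known as Wnt target genes, were at 9.39 and 23.4 CPM and at 9.98 and 22.2 CPM. Ligands split: Wnt2 was at 11.3 and 22.9 CPM, which fell under 2-fold under 5 alternatives, Wnt5a was lower at 35.4 and 16.3 CPM, and Wnt4 lower at 25.7 and 9.86 CPM. Wnt4 was at 315 and 424 CPM in the epithelial gates, and without keratin UMIs its log2 ratio was -0.38.

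Complement genes were higher in 10 of 16 measured members and lower in 0 (background 6.36% and 3.24%), with a median log2 ratio of 1.14, and 5 of the 10 higher genes met the free RNA criterion. C4b, the central component of the classical and lectin pathways, was at 2.96 and 54.0 CPM (18.2-fold, 13.1 to 26.3), in 31 and 823 members, although reads of its near-identical copy could be counted with it. In Cilp Thbs4 fibroblasts C4b was 23.7-fold higher, from 7 UMIs in the control to 78 at day 14. The initiating proteases C1s and C1r were at 426 and 895 CPM and at 687 and 1368 CPM, which is 2.10-fold and 1.99-fold. The factor B gene Cfb was at 0.423 and 5.27 CPM, and C7, a part of the membrane attack complex, at 47.4 and 100 CPM. C3, C2, C6, Cfd and Clu did not meet the free RNA criterion, and their levels were highest in the immune or endothelial gates. The C1 inhibitor gene Serping1 was 1.71-fold higher, and the membrane-bound regulators Cd55 and Cd59 were 1.04-fold and 0.90-fold the control. After thinning, 5 of the 11 complement genes still measured were past 2-fold.

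Interferon-stimulated genes were higher in 9 of 24 measured members and lower in 0 (background 6.36% and 3.24%), with a median log2 ratio of 0.74, and 2 of the 9 met the free RNA criterion. Irf7, the transcription factor that drives type I interferon, was at 6.18 and 24.7 CPM (4.00-fold), and Isg20, an antiviral exonuclease, at 8.12 and 23.9 CPM. Oas1a, an enzyme that senses double-stranded RNA, was at 2.45 and 17.0 CPM, while the endothelial gates held 16.0 and 64.8 CPM. Mx1 and Mx2, close paralogs, were at 0.930 and 18.7 CPM and at 5.16 and 21.6 CPM, and Isg15 at 18.8 and 79.4 CPM. The T cell chemokine genes Cxcl9 and Cxcl10, which interferon gamma induces, were lower instead, at 32.3 and 5.92 CPM and at 209 and 55.6 CPM. All 5 measured MHC class II genes were past 2-fold, Cd74 at 8.54 and 62.8 CPM, but the immune gates held 14416 and 13415 CPM of Cd74 and 0 of the 5 met the criterion. Macrophage markers moved with them, and their part in these values was not tested.

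The promoters of Oas1a and Irf7 are shown because this list shares a known sequence element, the interferon-stimulated response element, searched on both strands as a pair of GAAA runs with 2 bases of any kind between them, with matches in capitals (RefSeq sequences on build GRCr8, read 5′ to 3′). Oas1a lies at chr12:41330216-41330515 on the plus strand and Irf7 at chr1:205799974-205800273 on the minus strand.
Oas1a: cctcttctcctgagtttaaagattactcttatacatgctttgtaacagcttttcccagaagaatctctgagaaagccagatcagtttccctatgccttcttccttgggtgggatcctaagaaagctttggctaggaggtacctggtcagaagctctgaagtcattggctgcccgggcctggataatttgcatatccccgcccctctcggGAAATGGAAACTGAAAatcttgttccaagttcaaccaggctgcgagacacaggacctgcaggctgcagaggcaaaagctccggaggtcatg
Irf7: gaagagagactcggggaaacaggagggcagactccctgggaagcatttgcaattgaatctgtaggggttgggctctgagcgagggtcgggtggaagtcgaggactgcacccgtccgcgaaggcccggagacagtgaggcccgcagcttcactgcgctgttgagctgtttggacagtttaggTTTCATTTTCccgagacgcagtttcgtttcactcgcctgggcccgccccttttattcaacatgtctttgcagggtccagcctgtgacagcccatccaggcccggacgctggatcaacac
The Oas1a window held 2 overlapping matches, which began 41 and 35 bases before the start, and the Irf7 window 1 match on the other strand, 69 bases before it. The element was found for 13 of the 18 genes of this list that the table held, or 72.2%, counted by gene. It was in 3.92% of all 33469 promoters, counted singly.

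Genes of the G2/M phases of the cell cycle were lower. Of 28 measured genes, 11 were at least 2-fold lower and 0 higher (background 3.24% and 6.36%), with a median log2 ratio of -0.92, and 28 of 28 were below the control. Mki67, the common proliferation marker, was at 39.8 and 16.0 CPM and Top2a, the topoisomerase of dividing cells, at 39.4 and 17.2 CPM, and Ccna2, which encodes cyclin A2, at 7.27 and 2.64 CPM. The epithelial gates held 174 and 139 CPM of Mki67, and 1 of the 28 genes met the free RNA criterion. The epithelial markers fell with this list: with members that had a keratin UMI left out, 3 genes were lower, and the log2 ratio of Mki67 was -0.75. Thinned to 1000 UMIs, Mki67 or Top2a had a UMI in 2.12% (1.4% to 3.0%) of control and 1.28% (0.851% to 1.84%) of day 14 members, intervals that overlap, and in 14.9% and 12.4% of epithelial cells. S phase genes did not share the direction, with 1 of 28 higher, Clspn, and a median log2 ratio of 0.03.

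The promoter of Mki67 is shown for the cell cycle homology region CHR, searched as TTTGAA on both strands, through which many G2/M genes are known to be repressed (GRCr8, chr1:199952544-199952843, minus strand, 5′ to 3′, matches in capitals).
Mki67: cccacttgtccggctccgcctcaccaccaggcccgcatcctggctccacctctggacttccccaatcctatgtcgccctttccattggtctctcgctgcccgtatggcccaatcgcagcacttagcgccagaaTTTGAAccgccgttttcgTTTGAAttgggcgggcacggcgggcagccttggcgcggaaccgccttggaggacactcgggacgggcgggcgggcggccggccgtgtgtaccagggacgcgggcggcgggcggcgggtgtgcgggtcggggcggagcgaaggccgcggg
Its 2 matches began 117 and 99 bases before the start. TTTGAA was found for 20 of 26 G2/M genes, or 76.9%, counted by gene, against 18.3% of all promoters, counted singly. An AP-1 element, searched as TGANTCA, was found in 7.33% of all promoters and for 0 of 13 matricellular genes.

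Markers of the adventitial state and fibroblast transcription factors differed less. Of 23 adventitial genes, 1 was at least 2-fold higher (Uchl1) and 2 lower (Smpd3 and Il33), with a median log2 ratio of 0.06. The background was 6.36% higher and 3.24% lower, with a median of 0.09. Dpp4, the defining surface peptidase, was at 144 and 205 CPM, Clec3b at 610 and 1018 CPM and Has1, a hyaluronan synthase, at 908 and 808 CPM. The alarmin Il33 was at 79.6 and 15.9 CPM and was highest in the endothelial gates. Of 31 transcription factors, 2 were higher (Barx1 and Runx1), or 6.45%, near the background share, and 3 were lower, or 9.68%. The 3 were Ebf1, Ebf2 and Ebf3, early B-cell factors that also mark mesenchymal lineages. Ebf1 was at 212 and 99.4 CPM (0.469-fold, 0.445 to 0.496) and Ebf2 at 33.8 and 9.46 CPM. The Ebf3 value, 9.90 and 4.84 CPM, did not meet the free RNA criterion.

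Immediate-early genes, transcription factors that respond to stimuli within minutes, were abundant in both libraries. Atf3 was at 5901 and 5044 CPM in members, 4 of 32 immediate-early genes were past 2-fold, all higher, and the list median was 0.07. Of these 4 genes, 2 met the free RNA criterion. For this list and the next 3, the background was 6.36% higher and 3.24% lower. Of 13 heat shock genes 1 was lower and 0 higher, with a median log2 ratio of -0.41. That gene was Hspb1, a small heat shock protein, at 4837 and 1933 CPM, which was at 4701 and 3944 CPM in the epithelial gates. Of 18 genes of the NF-kB feedback and adhesion list, 1 was lower, Ptx3, a long pentraxin, at 347 and 141 CPM. Among 39 growth factors and receptors 4 were higher (Mdk, Pdgfc, Gdnf and Fgf7) and 5 lower, including Met, the receptor of hepatocyte growth factor, at 11.7 and 4.01 CPM, and Ptn, which encodes pleiotrophin, at 493 and 207 CPM.

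The rule for named genes ranked genes by the bound of their interval nearest to no difference, and 15 were named in each direction. The higher genes not yet described included Abcb1a, the drug efflux transporter, at 2.37 and 74.2 CPM (31.3-fold, 21.6 to 47.3), in 15 and 979 members. Msln, which encodes mesothelin, had 2 control UMIs and 352 at day 14 in 145 members, a ratio of 75.2 (20.7 to 623), and the potassium channel gene Kcnk2 had 2 and 217 UMIs, a ratio of 46.3 (12.7 to 385). Cpm, a carboxypeptidase, was at 2.71 and 23.1 CPM. These genes were higher at day 14 in Cilp Thbs4 fibroblasts as well: Abcb1a 19.4-fold, Msln 16.2-fold, Kcnk2 35.2-fold and Cpm 10.7-fold. The day 14 levels of Kcnk2 and Cpm there, 11.8 and 28.3 CPM, were above those in members. The other 4 named higher genes rested on a single cell: 1 day 14 barcode held 463 of 467 Tac1, 402 of 407 Scg2, 213 of 244 Stmn2 and 59 of 62 Snap25 UMIs, all genes of neurons or neuroendocrine cells. That barcode had 51492 UMIs, with 82 Postn-side and 7 Cilp-side UMIs and 374 of Col3a1, so it met the rule. Without it Tac1 had 4 and Scg2 5 UMIs at day 14, Stmn2 kept a log2 ratio of 1.14, and 641 genes were higher and 332 lower. It was singled out after these values were seen.

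Control levels of the 15 lower genes ran from 6.68 CPM (Dcx) to 4837 CPM (Hspb1), and their folds from 2.46-fold lower (Ptx3) to 11.6-fold lower (Cpa1). Igfbp5 was at 1840 CPM in 80.3% of control members and at 655 CPM in 58.3% at day 14 (0.356-fold, 0.349 to 0.363), and Fgl2, a fibrinogen-like protein, at 963 and 324 CPM (0.337-fold). After thinning, Igfbp5 had a UMI in 50.9% and 27.5% of members and Fgl2 in 41.6% and 22.6%. Zfhx4, a zinc finger homeobox gene, was at 10.8 and 1.12 CPM, Cited1, a transcriptional co-regulator, at 16.2 and 2.46 CPM and Cpa1, a digestive carboxypeptidase, at 29.8 and 2.56 CPM, with UMIs of Cpa1 in 74 and 23 members. Itm2a, a membrane protein of mesenchymal progenitors, was at 142 and 57.6 CPM and Lpar4, a receptor for lysophosphatidic acid, at 13.6 and 4.66 CPM. The remaining 7 were Cxcl9, Itprid1, Smpd3, Dcx, Ebf2, Hspb1 and Necab1 beside Ptx3, and of these Itprid1 went from 27.2 to 5.09 CPM. Control CPM was higher in another gate than in members for Cpa1 (endothelial, 53.9), Igfbp5 (mural, 2824), Fgl2 (immune, 984) and Itm2a (mural, 150). The same was true of Cxcl9 (endothelial, 52.9) and Ebf2 (mural, 46.6). The other named lower genes were higher in control members than in the epithelial, endothelial, mural and immune gates. The part of free RNA in these values was not tested.

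**Figure D3:**
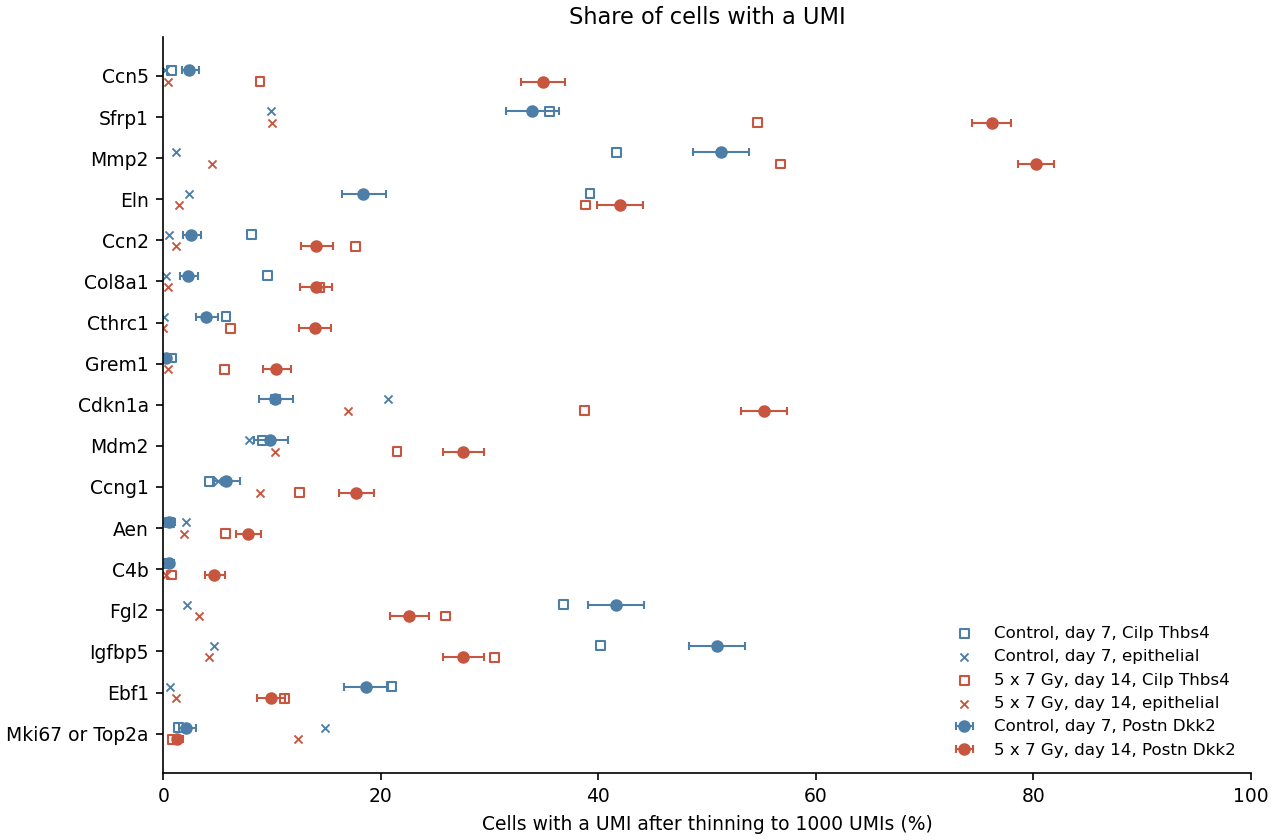
Share of cells (%) with at least 1 UMI of a gene after each cell was thinned to 1000 UMIs, in the control (blue) and the day 14 library (red): filled circles are Postn Dkk2 fibroblasts with 95% Clopper-Pearson intervals, squares Cilp Thbs4 fibroblasts and crosses the epithelial gate. Sfrp1 went from 33.9% to 76.2% and Cdkn1a from 10.3% to 55.2% of Postn Dkk2 fibroblasts, while Igfbp5 went from 50.9% to 27.5%.

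The day 14 ratio was then compared with that in Cilp Thbs4 fibroblasts, gated in the same way from the same 2 libraries. There 9754 genes were tested, 501 at least 2-fold higher and 247 lower. Of the genes at least 2-fold higher in Postn Dkk2 fibroblasts and tested in both, 264 of 472 were also higher in the Cilp class, and 173 of 278 lower genes were also lower. These counts did not use the free RNA criterion. Genes that failed it moved in both classes too, such as Ccl21 (0.0474-fold and 0.0187-fold) and C1qa (14.7-fold and 6.08-fold). The part of free RNA in the overlap was not tested. The p53 list had nearly the same median in both classes, 1.19 and 1.14. For Cdkn1a the folds were 7.72 and 6.13, and the difference of the log2 ratios was 0.33 (counting interval 0.23 to 0.43), while for Ccng1 they were 3.64 and 3.11.

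Several matrix genes differed more in Postn Dkk2 fibroblasts than in the Cilp class. Col8a1 was 8.66-fold higher at day 14 in the first and 1.79-fold in the second, a difference of log2 ratios of 2.27 (2.09 to 2.46). Its control levels were unequal, at 26.0 and 128 CPM, while the day 14 levels were close, at 225 and 229 CPM. Eln was 3.66-fold higher against 0.905-fold (2.02, 1.95 to 2.08), again from unequal control levels of 288 and 874 CPM. Tnc was 5.53-fold against 1.45-fold and Ccn2 8.86-fold against 2.82-fold. Both were lower in Postn Dkk2 than in Cilp Thbs4 control cells, at 17.2 and 63.3 CPM and at 25.5 and 109 CPM. Ccn2 was still lower in Postn Dkk2 fibroblasts at day 14, at 226 against 307 CPM. Cthrc1 was 5.23-fold against 1.52-fold (1.78, 1.61 to 1.96), and at day 14 its level was higher in Postn Dkk2 fibroblasts, at 244 and 102 CPM. Grem1 was 42.6-fold against 11.9-fold higher (1.84, 1.40 to 2.28), and Sfrp1 4.27-fold against 2.06-fold.

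Other genes differed less in Postn Dkk2 fibroblasts or in the other direction. Fbln1 was 2.31-fold higher against 3.85-fold, and Tgfbi was 0.338-fold the control in Postn Dkk2 and 1.49-fold in Cilp Thbs4 fibroblasts, a difference of -2.14 (-2.36 to -1.92). Apod, an apolipoprotein, was at 19.6 CPM in day 14 Postn Dkk2 and 379 CPM in day 14 Cilp Thbs4 fibroblasts, from 6.60 and 5.61 CPM. Igfbp5 was 0.356-fold against 0.730-fold. These intervals treat UMIs as independent and hold for these pools alone.

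**Figure D4:**
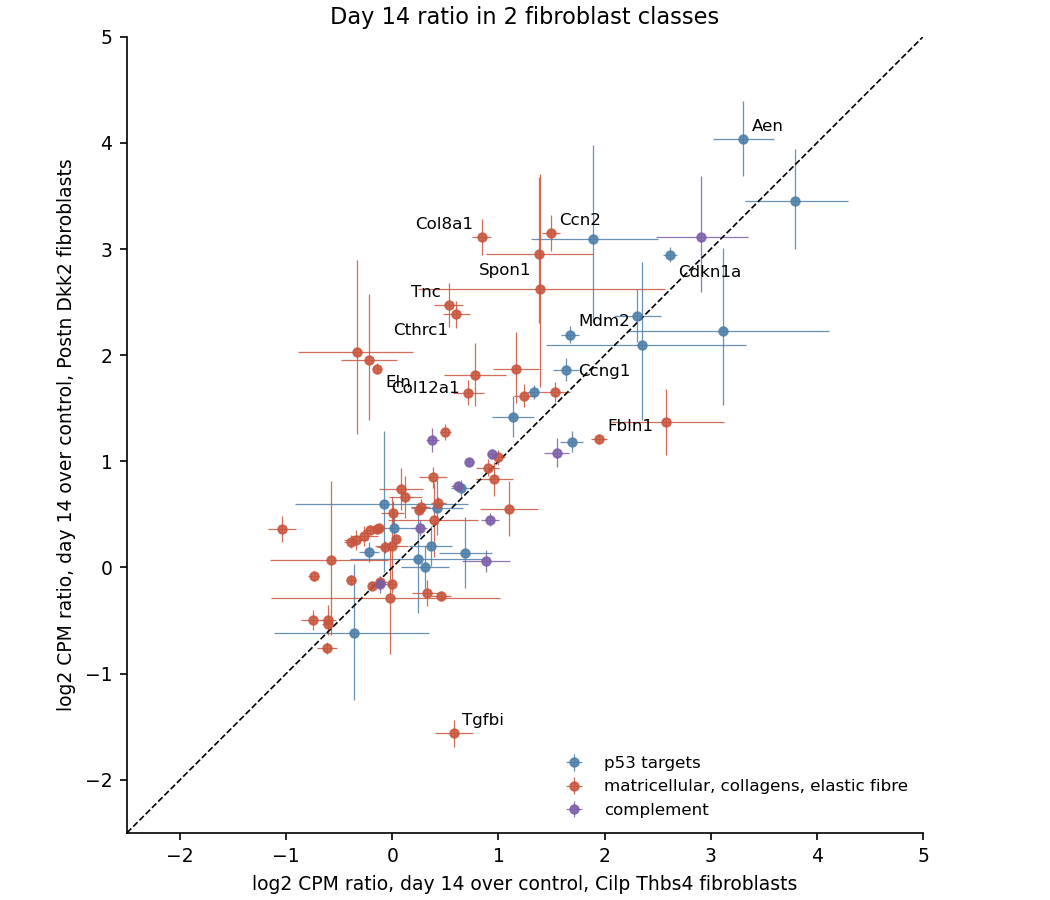
Log2 CPM ratio of day 14 over control in Cilp Thbs4 fibroblasts (x axis) and in Postn Dkk2 fibroblasts (y axis); each point is 1 gene with at least 10 UMIs in all 4 sums (blue p53 targets, red matrix genes, purple complement genes), bars are 95% counting intervals, and the dashed line marks equal ratios. The p53 targets Cdkn1a and Ccng1 lie near the line, Col8a1, Tnc, Cthrc1, Eln and Ccn2 lie above it, and Tgfbi lies below it.

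Finally, what members shared beyond the rule was described by comparing the classes within each library. Since the classes were split by 8 genes that vary together with many others, this is a description and no test. Of 9619 genes, 171 were at least 2-fold higher in Postn Dkk2 fibroblasts in both libraries (1.78%) and 173 at least 2-fold lower in both (1.80%). Among the higher genes, Wnt2, a Wnt ligand, was at 11.3 CPM against 0.280 CPM in control cells (40.4-fold) and was 17.5-fold higher at day 14. Cadm3, a cell adhesion molecule, was 8.45-fold and 6.24-fold higher, Cpz, a carboxypeptidase that binds Wnt proteins, 5.96-fold and 12.6-fold, and Mmp27, a matrix metalloproteinase, 42.5-fold and 22.4-fold. The other named genes were Cntn1, Syt10, 1700066B19Rik, Il1f10, Ca8 and Plppr5.

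The genes lower in Postn Dkk2 than in Cilp Thbs4 fibroblasts in both libraries named the other side. Ptn was at 493 CPM in Postn Dkk2 and 2382 CPM in Cilp Thbs4 control cells, Smoc2, a calcium-binding matrix protein, at 53.8 and 350 CPM, and Spp1, which encodes osteopontin, at 4.91 and 58.4 CPM. Bmper, a BMP-binding protein, was at 13.4 and 87.9 CPM and Serpine2, a protease inhibitor, at 13.9 and 112 CPM. Dlk1, Scube2, Ninj2 and Cxcl14 were also among them. Apoe was higher in Postn Dkk2 fibroblasts in both libraries, at 333 against 138 CPM in the control and 2279 against 783 CPM at day 14.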

How the data were processed

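Single-cell RNA was measured in 4 rat esophagus libraries, of which 2 were compared. The authors deposited raw UMI counts per barcode and gene left unscaled. Cell Ranger 5.0.0 is listed, per the submitters' processing notes, as are mRatBN7.2 and rn7 as builds. Which gene annotation was used: not given in the sources used here. Members and lists were chosen with earlier results of these data known. Of 747 listed symbols, 26 matched no feature name, Pecam1 among them.

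Counts were summed over members per library and divided by the summed UMIs (CPM). A gene needed at least 50 UMIs over both libraries and counted as higher or lower past 2-fold, with an exact conditional binomial interval. Shares have exact Clopper-Pearson intervals. Differences of log2 ratios used normal intervals and needed at least 10 counts in each sum. Mitochondrial, ribosomal protein and haemoglobin genes and the rule genes were not counted. Comparison gates were 5 Myh11 or Rgs5 UMIs (mural), 3 endothelial UMIs, Ptprc (immune) and 50 keratin UMIs per 10000 (epithelial). Named genes were the 15 per direction with the interval bound farthest from 1 that met the free RNA criterion, 10 per direction against Cilp Thbs4 fibroblasts, and up to 6 per list besides those needed for roles. Scrublet (scanpy 1.11.5) called 3.93% and 4.18% of cells, below the expected 9.45% and 8.06%, and 5.07% and 4.78% of members, which were kept and left out as an alternative. The summing and ratio code was tested on simulated data. Python 3.11.15, numpy 2.4.6 and scipy 1.17.1 were used. The same gate in the 2 libraries not compared held 207 (35Gy_7d) and 57 (5x7Gy_7d) cells. Some genes that these rules name are not reported here.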

Additional observations from a re-analysis of the deposited data

Results flagged for a closer look

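The same gate was applied to the 2 day 7 libraries that the comparison does not use, taken after a single 35 Gy dose (207 cells) and after 5 fractions of 7 Gy (57 cells). The 15 named higher genes and Ccn5 were read there, and a value was singled out where it rested on at least 10 UMIs and the lower counting bound of its ratio to the control was above 2. This held for 13 values, given here as those of single pools with few cells and with no test of the conditions. In 35Gy_7d members, Grem1 was at 420 CPM against 5.16 CPM in the control, Ccn5 at 229 against 36.4 CPM, Ccn2 at 124 against 25.5 CPM and Col8a1 at 108 against 26.0 CPM. In the same cells Abcb1a was at 58.4 against 2.37 CPM, Aen at 44.6 against 5.84 CPM, Msln at 16.0 against 0.169 CPM, C4b at 13.8 against 2.96 CPM and Ptprv at 5.51 CPM against 0 UMIs. In 5x7Gy_7d members, Ccn5 was at 789 CPM, Ccn2 at 617 CPM, Col8a1 at 97.1 CPM and Abcb1a at 57.1 CPM. Ccn5 is a gene of the rule, so its level in members is a description. Only 22.8% of 5x7Gy_7d members had a Ccn5 UMI, and the 33 Cilp Thbs4 fibroblasts of that library held more, at 910 CPM.

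Other named genes did not meet these limits. Cdkn1a was 1.44-fold (1.28 to 1.62) the control in 35Gy_7d and 1.47-fold (1.02 to 2.05) in 5x7Gy_7d members, against 7.72-fold at day 14. In 5x7Gy_7d members, Grem1 had 2 UMIs, a ratio of 2.21 (0.262 to 8.35), while Ptprv with 8 UMIs and C4b with 7 UMIs were at 45.7 and 40.0 CPM. Cpm had 3 UMIs in 35Gy_7d members, or 1.65 CPM against 2.71 CPM in the control, a ratio of 0.610 (0.120 to 1.95).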

How the results depend on the processing

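No paired analysis was possible because each group has 1 library, and for the same reason no replicate could be left out. Over 15 alternatives and 85 genes there were 1262 gene values. Of these, 37 fell inside 2-fold, 1 rose past it in the same direction, and 0 that began past it reversed. The other 1224 were counted as kept, but direction was not checked for genes that began inside 2-fold. Of 120 list medians 119 moved by less than the limit set, and the p53 median was 1.69 without members that had a keratin UMI. Thinning members to 1000 UMIs, which leaves 5674 genes tested, gave 234 higher and 76 lower genes, and 5 of 11 complement, 6 of 15 Wnt, 5 of 14 interferon-stimulated and 2 of 15 elastic fibre genes past 2-fold. A minimum of 20 UMIs gave 535 lower genes and leaving out keratin-positive members 165. The 11 lower of 28 measured G2/M genes became 6 with cells weighted equally, 3 of 27 without keratin, 3 of the 6 still measured with thinning, 7 in Postn-led members and 7 with Aspn out of the rule. Median-of-ratios scaling moved the median of all genes from 0.09 to 0.00 and gave 550 higher and 385 lower genes.

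The share of gated fibroblasts in the control was 37.4% with at least 1000 UMIs and at most 10% mitochondrial UMIs, 30.8% with a margin of 3 UMIs, 39.4% with a collagen sum of 200, 32.7% without keratin, 49.9% without Aspn and 36.9% with thinning. At day 14 it was 62.4% with the margin, 75.2% with the collagen sum, 64.7% without Ccn5, 73.9% without Aspn and 60.6% with thinning. The share of kept barcodes in the control was 14.8% with the stricter cell filter, 11.5% with the margin, 12.0% with the collagen sum, 4.98% without keratin, 11.1% without endothelial UMIs and 18.6% without Aspn, and at day 14 23.9%, 20.7%, 20.7%, 16.5%, 15.3% and 24.5%, with 21.5% without Ccn5. The day 14 share was the higher one under each of these alternatives. Those on endothelial UMIs, Ccn5, Aspn, thinned gating and the Tac1-rich barcode were chosen after seeing the data. Genes under 50 UMIs were not assessed at this depth.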
